A study of Sus scrofa with 2 samples.

Results

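SLPI encodes the secretory leukocyte protease inhibitor, 1 of 26881 features counted in single cells of pig endometrium. The gene was chosen by measured values, its UMI counts in the cells of these same libraries, so its levels are a description with no test. It is described in 2 libraries. The EL library came from a Yorkshire sow aged 3 years with an earlier abortion and 3 failed artificial inseminations in a row, whose stage at sampling is not given (EL stands for embryo loss). The EIS library came from a Yorkshire sow of the same age sampled on day 30 after a successful insemination (EIS stands for successful embryo implantation). A single animal and a single library stand for each group, and differences of sow, stage, pregnancy and library cannot be told apart. Tissue of each uterine horn was collected, and about 200 mg was digested with collagenase and a second protease, filtered and freed of red cells, steps that can set which cells were recovered.

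SLPI is a small secreted protein built of whey acidic protein (WAP) domains. It blocks neutrophil elastase, cathepsin G and related serine proteases, and is known for antimicrobial and anti-inflammatory activity on mucosal surfaces. In the pig, where the placenta does not invade the uterus, the protein (also called antileukoproteinase) is part of the uterine secretions of pregnancy. Those secretions also hold uteroferrin, the iron-binding acid phosphatase encoded by ACP5, and the uteroferrin-associated protein encoded by UABP-2. The secretions come from the glands, while ciliated cells are a separate type of the uterine epithelium.

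The EL library held 43302286 unique molecular identifiers (UMIs, 1 per captured transcript) in 10936 barcodes, and the EIS library 36069473 UMIs in 8848 barcodes. The filters left 9864 EL cells (median depth 2338.5 UMIs) and 8068 EIS cells (2252 UMIs), and 27 cell barcodes occurred in both libraries. SLPI held 11349 UMIs of the EL cells and 5102191 UMIs of the EIS cells. Its level was 294 CPM (UMIs scaled to a total of 1000000) in EL, the rank 487 of all genes, and 152502 CPM in EIS, where it ranked 1. In EL 1878 of 10936 barcodes held an SLPI UMI, while in EIS all 8848 barcodes held at least 1. There is no replicate error, since each group has 1 library. All intervals are at 95%, exact Poisson for levels, exact conditional for ratios and exact Clopper-Pearson for shares of cells, and cover counting error only.

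Cells were sorted into classes by the number of different marker genes they held. Of 11 epithelial markers only KRT8, KRT18, CLDN7 and ESRP1 carried a symbol in these files. Epithelial cells with UMIs of both SNTN and TPPP3, genes of motile cilia, were called ciliated. The class was checked with 13 other cilia genes, whose summed level was 6114 CPM in EL ciliated cells and 262 CPM in EL non-ciliated epithelial cells. In EIS it was 6921 CPM in ciliated cells and 62.7 CPM in non-ciliated epithelial cells. The mesenchyme markers did not define a cell type in EIS. Of the 3580 cells that met them, 1453 lay in a cluster with ACTG2 and ACTA2 among its leading genes, 1325 in a cluster led by CTSL and the pregnancy-associated glycoprotein gene PAG6, and 261 in a cluster led by CRYGS and UPK2, so these cells are described by cluster.

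In the EL library most SLPI was found in ciliated cells. The 1261 ciliated cells held 9136 SLPI UMIs, which is 80.5% of all SLPI UMIs of that library, at a level of 1198 CPM (1173 to 1223). The 5844 non-ciliated epithelial cells held 1441 SLPI UMIs, a level of 52.8 CPM (50.1 to 55.6). The level was 22.7-fold higher in ciliated than in non-ciliated epithelial cells (21.4 to 23.99). It was 13.6-fold in thinned cells and 49.96-fold with 10% of UMIs removed as library profile. An SLPI UMI was found in 54.7% of ciliated cells (51.9 to 57.5), with a median of 5666 UMIs per cell in all, and in 9.79% of non-ciliated epithelial cells (9.04 to 10.6), with a median of 2941. After each cell was thinned to 1000 UMIs the shares were 34.9% and 4.598%.

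Below the ciliated cells came 3 groups whose intervals overlapped. The 66 cells of the mesenchyme gate stood at 347 CPM (249 to 471), the 2152 cells that met no gate at 270 CPM (249 to 292) and the 42 endothelial cells at 242 CPM (162 to 348). The mesenchyme value rests on 1 cell, which held 35 of the 41 UMIs. The endothelial value rests on 29 UMIs, of which 7 cells held 17. T or NK cells stood at 70.9 CPM (47.5 to 102) and macrophages or monocytes at 35.7 CPM (13.1 to 77.7), and both intervals held the level of the non-ciliated epithelial cells. The T or NK value rests on 29 UMIs in 268 cells. The 204 of them with no UMI of KRT8 or KRT18 held 4 SLPI UMIs, a level of 13.7 CPM (3.74 to 35.2). Neutrophils held 2 SLPI UMIs in 11 cells. No UMI was found in 19 B or plasma cells, where a count of 0 allows up to 46.2 CPM.

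**Figure D1:**
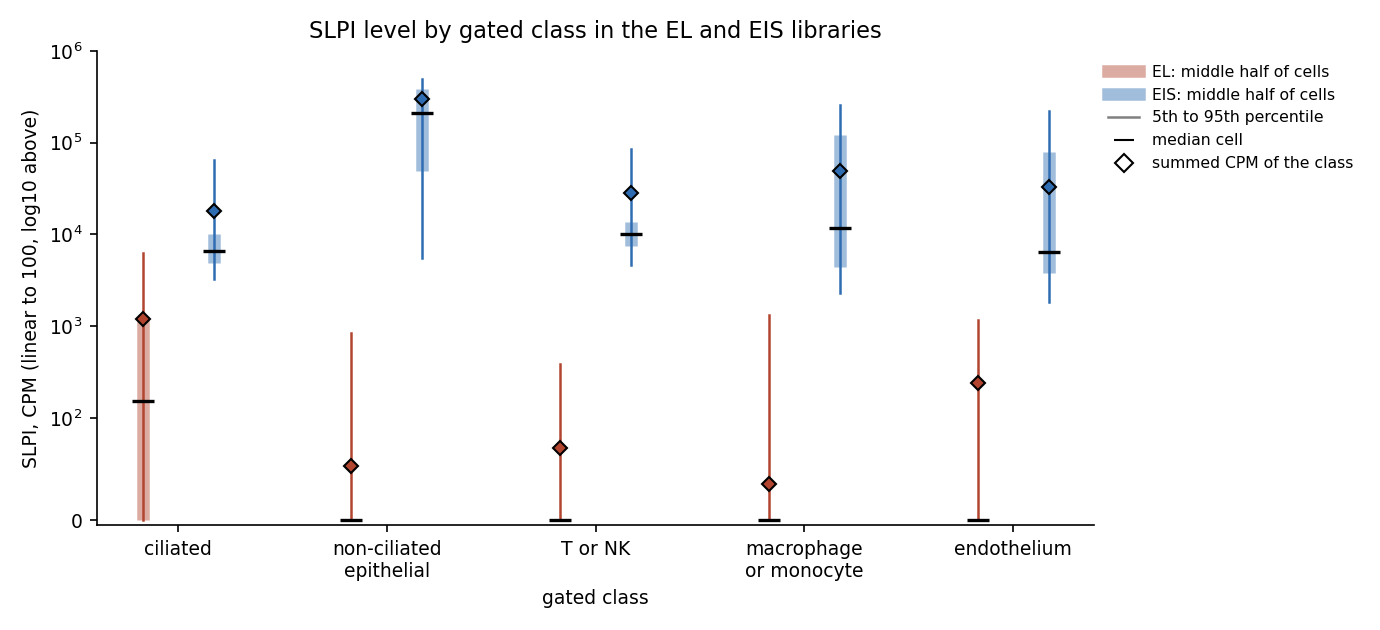
SLPI level in CPM (linear up to 100, log10 above) in 5 gated classes of the EL (red) and EIS (blue) libraries. Diamonds are the summed level of the class, black dashes the median cell, boxes the interquartile range and lines the 5th to 95th percentile over cells, which are not replicates. The EL median lies at 0 outside ciliated cells, and the EIS median lies between 6494 and 211862 CPM in every class drawn.

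Within EL ciliated cells SLPI was uneven. No UMI was found in 571 of the 1261 cells, 1 to 9 in 449, 10 to 49 in 201 and 50 or more in 40, and the highest cell held 215. The median cell stood at 154 CPM, the 95th percentile at 6210 CPM and the highest cell at 32193 CPM. The 126 cells with most SLPI held 66.7% of the SLPI UMIs of the class. A total of 112 genes had a level within 1.5-fold of SLPI in these cells. Each of them was found in a larger share of the cells than SLPI (54.8% to 98.7%, median 95.2%). The share with an SLPI UMI was 31.2% in the 32 cells of 500 to under 1000 UMIs, 48.4% in the 159 cells of 1000 to under 3000 UMIs, 56.5% in the 974 cells of 3000 to under 10000 UMIs and 55.2% in the 96 cells of at least 10000 UMIs.

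SLPI outside the EL ciliated cells was set beside the cilia genes, each as a share of its own ciliated level. The SLPI level in non-ciliated epithelial cells was 0.0441 of the ciliated one (0.0417 to 0.0466). The same ratio was 0.0382 for FOXJ1, the master regulator of motile cilia, 0.0417 for the dynein light chain gene DYNLRB2 and 0.0443 for ROPN1L, and it ran from 0.0311 for CCDC39 to 0.0721 for SPEF1 over the 13 genes of the check. In cells that met no gate the ratio was 0.225 for SLPI, 0.240 for FOXJ1 and 0.209 for DYNLRB2. In T or NK cells it was 0.0592 for SLPI (0.0396 to 0.0851) and 0.0417 for DYNLRB2 (0.0302 to 0.0562). Endothelial cells differed, with SLPI at 242 CPM against 1198 CPM in ciliated cells while the 13 cilia genes summed to 125 CPM against 6114 CPM and SNTN had no UMI. Most of that SLPI came from 7 cells of a cluster led by STEAP1 and SPARCL1, at 850 CPM. The endothelial cells of a cluster led by MMRN1 and CCL21 held 7 SLPI UMIs, at 97.4 CPM. In the mesenchyme gate SLPI was 347 CPM and the cilia genes summed to 873 CPM.

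Clusters made without SLPI also placed most EL SLPI in ciliated cells. The ciliated cluster of 1243 cells, led by SNTN, ROPN1 and TMEM212, held 82.5% of the SLPI UMIs at 1359 CPM. The 4 large non-ciliated clusters, led by JPH4, CLDN10, CCK and RPRML, stood between 10.3 and 14.6 CPM, and the T or NK clusters between 15.0 and 22.1 CPM. A shallow cluster of 2408 cells led by CYP26A1, with a median of 889.5 UMIs, stood at 498 CPM. It also carried cilia genes, with TPPP3 at 704 CPM against 2238 CPM in the ciliated cluster. Of the SLPI UMIs in the non-ciliated epithelial gate, 44.8% came from 1100 cells of this shallow cluster and 36.2% from 89 cells of the ciliated cluster.

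SLPI in EL ciliated cells was found with few UMIs of uteroferrin and its partner. ACP5 stood there at 11.8 CPM, and UABP-2 held 5 UMIs and SPP1, the adhesion protein osteopontin, 7 UMIs in the whole class. There were 102 SLPI UMIs per ACP5 UMI (82.5 to 126) in EL ciliated cells, against 4.16 (4.05 to 4.26) in EIS ciliated cells. Per UABP-2 UMI there were 1827 SLPI UMIs in EL and 4.99 in EIS ciliated cells. The values were 1305 and 21.6 per SPP1 UMI, and 2284 and 56.5 per SOD3 UMI. Each of these EL values rests on 4 to 7 UMIs of the other gene. TIMP2 and RBP4 were closer between the libraries. SLPI UMIs per TIMP2 UMI were 7.66 (7.21 to 8.15) in EL and 7.86 (7.60 to 8.13) in EIS ciliated cells, and per RBP4 UMI 24.2 in EL and 34.7 in EIS ciliated cells. Among the genes ranked most like SLPI across EL ciliated cells, out of 3240 found in at least 20% of them, were the mucosal trefoil peptide gene TFF3 (Spearman rho 0.32), DHRS3 (0.24) and QPCT (0.21). The lowest were HINT1 and ANXA4, both at -0.23. The cells share 1 library, the median gene stood at 0.00 and the rho of SLPI with depth was 0.01, and such weak values in sparse counts are given as a description. TFF3 itself was at 206 CPM in EL ciliated cells and 222 CPM in EIS ciliated cells.

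In the EIS library SLPI was highest in a secretory epithelial population. The 1133 non-ciliated epithelial cells held 2798354 SLPI UMIs, a level of 295559 CPM (295213 to 295906), so that SLPI made up 29.6% of all transcripts counted in them. The median cell held 679 SLPI UMIs and stood at 211862 CPM, the 5th percentile at 5482 CPM, the 95th at 494467 CPM and the highest cell at 622140 CPM. A cluster of 950 cells led by UABP-2, ACP5, PLA2G10, TIMP2 and SOD3 held 61.7% of the library's SLPI UMIs at 374137 CPM, with a median of 2020.5 SLPI UMIs per cell. Of the non-ciliated epithelial gate, 665 cells lay in that cluster and held 96.7% of the gate's SLPI. SLPI was left out of the clustering, but the genes that lead this cluster were not, so the cluster is no independent evidence for the pattern.

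Other EIS clusters whose gated cells were mostly non-ciliated epithelial stood far lower. The 116 cells led by AQP8 and IGFBP2 stood at 21025 CPM, the 77 led by TMEM213, RGN and MMP7 at 13757 CPM and the 49 led by MAL, UPK2 and UPK1B at 3451 CPM. UPK2 is also a marker of the trophoblast gate, and whether these 49 cells came from the sow or the conceptus was not tested. Another secretory program was high in the AQP8 cluster. RBP4, the retinol carrier of uterine secretions, reached 30209 CPM there, against 8033 CPM in the UABP-2 cluster, and UPTI, a Kunitz-type protease inhibitor of the pig uterus, reached 34139 CPM, against 117 CPM. The AQP8 cluster held 0.696 SLPI UMIs per RBP4 UMI (0.687 to 0.706), against 46.6 (46.2 to 46.9) in the UABP-2 cluster.

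Over the EIS classes the summed level followed the order non-ciliated epithelial (295559 CPM), mesenchyme gate (110018), macrophage or monocyte (48586), trophoblast gate (46493), endothelium (32841), T or NK (28315), ciliated (17988), neutrophil (11666) and B or plasma cells (10052). Of these neighbours none had overlapping counting intervals, but the spread over cells was much wider than the counting error. The order of the median cells was different, with 27449 CPM in the trophoblast gate, 25225 in neutrophils, 11648 in macrophages or monocytes, 10020 in T or NK cells, 7535 in B or plasma cells, 6524 in ciliated cells and 6494 in endothelial cells. Cells that met no gate stood at 133995 CPM and cells with tied markers at 159121 CPM.

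The summed level of a class could rest on part of its cells. In EIS T or NK cells the 43 cells with most SLPI held 71.7% of the SLPI UMIs. The 351 of 435 T or NK cells with no UMI of KRT8 or KRT18 stood at 13705 CPM. In EIS ciliated cells 5 cells that clustered with the UABP-2 population held 32.2% of the SLPI UMIs of the class, and the 214 in the ciliated cluster stood at 11080 CPM. In the trophoblast gate 90 of 189 cells lay in a cluster led by DPPA5 and HAVCR1 at 14376 CPM, and 56 lay in the cluster led by CTSL and PAG6 at 83295 CPM. Of the 240 endothelial cells, 81 lay in the cluster led by the venular gene ACKR1 at 4202 CPM and 100 in the cluster led by STEAP1 and SPARCL1 at 84354 CPM.

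SLPI was found in every EIS cell of every class, T, NK and B cells included. T or NK cells held a median of 19 SLPI UMIs per cell, B or plasma cells 20, neutrophils 17 and endothelial cells 31. Of 21 EIS clusters, 14 had a median under 50 SLPI UMIs per cell, a limit chosen after the values were seen. Among these 14 the median ranged from 17 to 47 SLPI UMIs (2.76-fold) and the median depth from 581.5 to 15164 UMIs (26.1-fold). The limit itself caps the SLPI range and leaves depth free, so these folds cannot be compared. The contractile cluster led by APOE and ACTA2 held 31 SLPI UMIs at a depth of 15164, and the neutrophil cluster led by SDS and CSF3R held 17 at a depth of 581.5. The 23 T or NK cells of 500 to under 1000 UMIs held a median of 32 SLPI UMIs, those of 1000 to under 3000 UMIs 19 and those of 3000 to under 10000 UMIs 20.5. In non-ciliated epithelial cells the median was 40.5 SLPI UMIs at 500 to under 1000 UMIs and 5554.5 at 10000 UMIs or more.

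**Figure D2:**
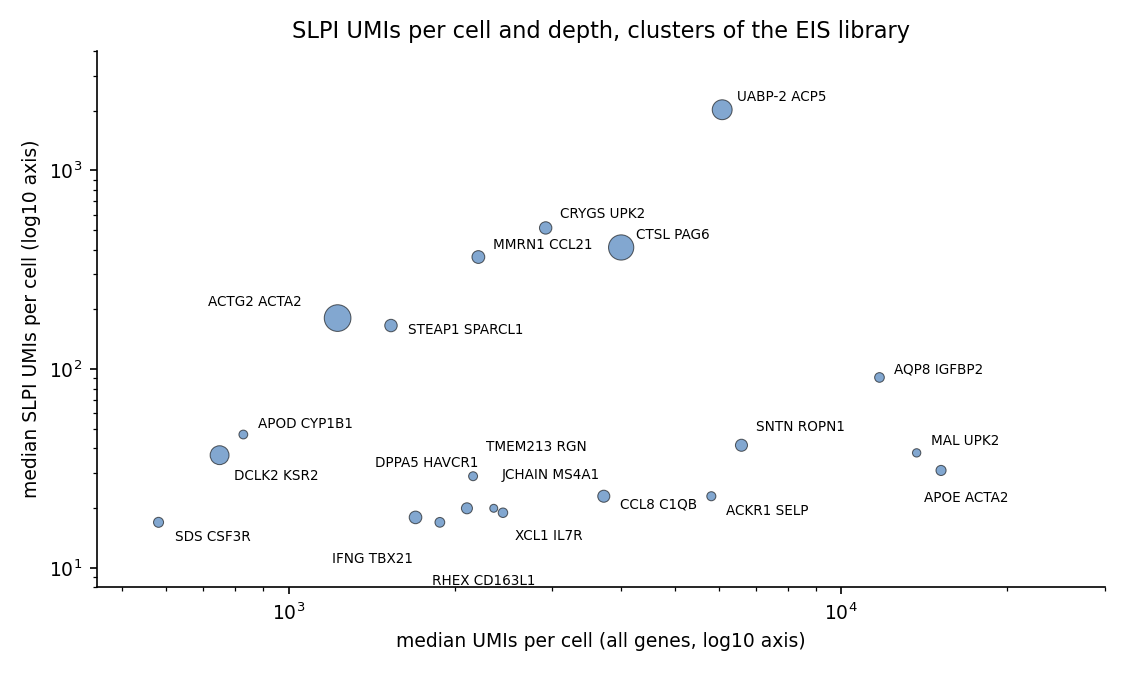
Median SLPI UMIs per cell (log10 axis) against median UMIs of all genes per cell (log10 axis) in 21 clusters of the EIS library. Each point is a cluster named by a pair of its leading genes, with an area that grows with its number of cells. The 14 clusters picked by a median under 50 SLPI UMIs lie between 17 and 47 at depths of 581.5 to 15164 UMIs. The cluster led by UABP-2 and ACP5 stands highest at 2020.5.

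Free RNA in the cell suspension gives UMIs in cells that do not make a transcript, and a single source keeps its genes in a fixed ratio. The ratio of SLPI to ACP5 differed less between the EIS classes than the level of SLPI did, but was not the same in all of them. There were 3.797 SLPI UMIs per ACP5 UMI (3.79 to 3.81) in non-ciliated epithelial cells, 4.16 (4.05 to 4.26) in ciliated cells, 3.55 (3.46 to 3.64) in T or NK cells, 3.53 in macrophages or monocytes, 4.03 in the trophoblast gate and 4.91 in endothelial cells. B or plasma cells, with 2.16 (1.90 to 2.46), and neutrophils, with 6.33 (5.65 to 7.12), lay outside these values. Of the 70 cells in the neutrophil gate, 5 clustered with the AQP8 population and held 47.2% of the SLPI UMIs of the class. The neutrophil cluster led by SDS and CSF3R held 3.67 SLPI UMIs per ACP5 UMI (3.43 to 3.93). SLPI UMIs per UABP-2 UMI ran from 1.53 in B or plasma cells to 6.92 in neutrophils, with 4.13 in non-ciliated epithelial, 4.99 in ciliated and 4.00 in T or NK cells. Ratios to RBP4 (0.626 in neutrophils to 40.1 in macrophages or monocytes) and to SPP1 (1.67 in neutrophils to 26.5 in B or plasma cells, over the same classes) ranged more widely. Those to SOD3 (43.7 in B or plasma to 72.2 in non-ciliated epithelial cells) and TIMP2 (4.77 in neutrophils to 12.4 in endothelial cells) did not. In the neutrophil cluster the values were 3.84 per UABP-2 UMI, 21.95 per RBP4 UMI and 10.9 per SPP1 UMI, so the neutrophil extremes belong to the gate and not to this cluster. The level of SLPI itself was 16.4-fold higher in non-ciliated epithelial than in ciliated cells (16.2 to 16.6).

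Among the clusters the ratio to ACP5 ran from 0.825 to 5.60. The contractile cluster, where SLPI was 3087 CPM, held 3.67 SLPI UMIs per ACP5 UMI, and the UABP-2 cluster, at 374137 CPM, held 3.83. The clusters led by CTSL and PAG6 (115450 CPM, 4.15) and with ACTG2 and ACTA2 (160278 CPM, 3.81) also had ratios close to it, at 410 and 181 SLPI UMIs per cell. Immune clusters ran from 2.39 in B or plasma cells to 3.91 in macrophages, and the ciliated cluster stood at 5.60 (5.40 to 5.81). The macrophage cluster held ACP5 at 2914 CPM in EIS, and at 4404 CPM with 7 SLPI UMIs in EL. How much of the EIS macrophage ACP5 was made by these cells was not tested. Per UABP-2 UMI the B or plasma cluster stood at 1.69 and the ciliated cluster at 6.26, against 4.12 in the UABP-2 cluster. A shallow cluster of 843 cells led by DCLK2, with a median of 750 UMIs, held 0.825 SLPI UMIs per ACP5 UMI (0.815 to 0.836), with ACP5 at 74604 CPM and SLPI at 61554 CPM. How much of the SLPI in any EIS class came from free RNA was not tested.

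**Figure D3:**
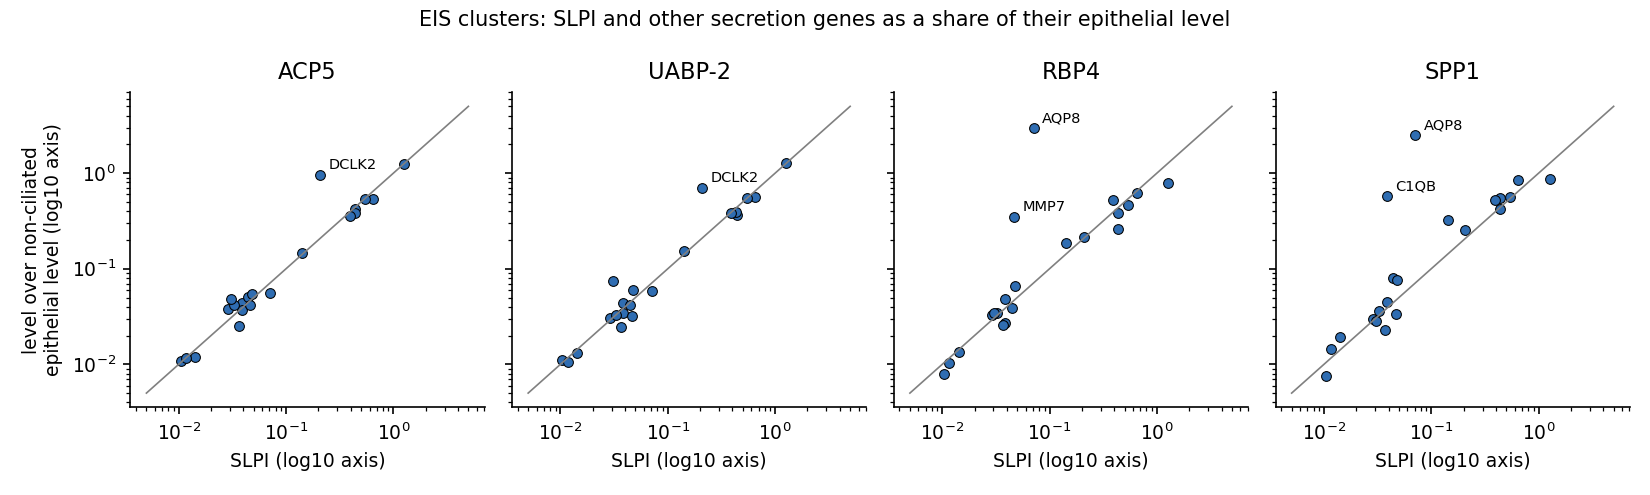
Level of ACP5, UABP-2, RBP4 and SPP1 (vertical, log10) against SLPI (horizontal, log10) in 21 EIS clusters, each as a share of the level of the same gene in EIS non-ciliated epithelial cells. Grey lines mark equal shares. The shallow DCLK2 cluster lies farthest above the line for ACP5 (74604 CPM), the B or plasma cluster also lies above it for UABP-2 and the ciliated cluster below it, and the AQP8 cluster stands above it for RBP4 (30209 CPM) and SPP1.

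Across cells of the EIS non-ciliated epithelium, the genes ranked most like SLPI among 1660 were UABP-2 (Spearman rho 0.84), ACP5 (0.84), SMPDL3B (0.70), the extracellular superoxide dismutase gene SOD3 (0.70) and the metalloproteinase inhibitor gene TIMP2 (0.68). Genes of the endoplasmic reticulum, SDF2L1 (0.63), PPIB (0.63) and SSR4 (0.62), were also among the 10 highest. UPTI was the lowest (-0.41) and the epithelial keratin gene KRT8 stood at -0.32, with a median of 0.01 over all genes ranked and 0.48 for depth. These cells share 1 library and its free RNA. They also mix clusters, with 665 of 1133 cells in the UABP-2 cluster, 111 in the DCLK2 cluster and 79 in the AQP8 cluster. The part of cluster membership in these rho values was not tested. In EIS ciliated cells UABP-2 (0.43), ACP5 (0.42) and TIMP2 (0.42) led the ranking as well, and in EIS T or NK cells the same 3 genes did, at 0.56, 0.55 and 0.45.

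Across the 13 class sums of at least 50 cells in both libraries, the pattern of SLPI was closest to UABP-2 (Pearson r 0.97 on log2(CPM + 10), among 3055 genes), SOD3 (0.96), GPX3 (0.93), ACP5 (0.92), TIMP2 (0.91) and SPP1 (0.90). The points of the libraries lie far apart. Over the 8 EIS sums alone r was 0.99 for both UABP-2 and ACP5, while over the 5 EL sums it was 0.74 for UABP-2, which held at most 5 UMIs in an EL class, and -0.63 for ACP5.

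Between the sows, SLPI in non-ciliated epithelial cells was 52.8 CPM in EL and 295559 CPM in EIS, a level 5596-fold higher in EIS (5314 to 5892). Of 14733 genes measured in this class it had the rank 6 from the lowest EL over EIS ratio (log2 ratio -12.45). The median gene lay at 1.32 (log2), with SLPI alone at 29.6% of the EIS total. With TMM scaling, which sets most genes to a ratio near equality, the median gene lay at 0.16 and SLPI was 12443-fold higher in EIS. At a limit of 4-fold, 24.1% of all genes were higher and 4.38% lower in EL epithelium in CPM, against 7.73% higher and 8.14% lower with TMM.

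In ciliated cells SLPI was 1198 CPM in EL and 17988 CPM (17785 to 18193) in EIS, a level 15.0-fold higher in EIS (14.7 to 15.4) and the rank 40 from the lowest of 12198 genes. Here 2.54% of genes were at least 4-fold higher and 0.935% at least 4-fold lower in EL, with a median of 0.06 (log2). The median cell held 1 SLPI UMI in EL and 44 in EIS, and no EIS ciliated cell was below 2300 CPM. In the same cells ACP5 was 367-fold higher in EIS (298 to 457), TIMP2 14.6-fold, RBP4 10.5-fold and the lipocalin gene SAL1 3.89-fold. On 4 to 7 EL UMIs each, UABP-2 was 5494-fold, SPP1 907-fold, SOD3 607-fold and IGFBP2 43.9-fold higher in EIS. Of 15 measured secretion genes 6 were at least 4-fold lower and 1 was higher in EL. In EIS the ciliated level stood at 0.635 of the T or NK level (0.625 to 0.646), and it was 1.31 of it when T or NK cells with UMIs of KRT8 or KRT18 were left out. The value of 15.0 moved to 8.20 with clusters, 9.48 with a stricter gate, 40.8 with doublets kept and 2.34 with 10% of UMIs removed as library profile.

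SLPI was also read against the UMIs of the genes that define the ciliated gate, over kept cells of every class and not ciliated cells alone. In EIS 423 cells held both genes, with 143922 SLPI UMIs, while the ciliated class had 227 cells and 29913 SLPI UMIs. In EL it stood at 1185 CPM (1161 to 1209) in cells with UMIs of both SNTN and TPPP3, 270 CPM with TPPP3 only, 148 CPM with SNTN only and 25.9 CPM (23.98 to 28.0) with neither. Among EL cells with both it was 1432 CPM at 1 SNTN UMI, 1055 at 2 to 4, 1198 at 5 to 9 and 1345 at 10 or more, with no steady direction. In EIS it was 113653 CPM at 1 SNTN UMI, 46366 at 2 to 4, 15752 at 5 to 9 and 6919 (6687 to 7158) at 10 or more, and 171907 CPM with neither gene. The median depth of these EIS groups was 4237, 6040.5, 7143 and 8273 UMIs. The parts of depth and of cells outside the ciliated class in the fall were not tested.

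**Figure D4:**
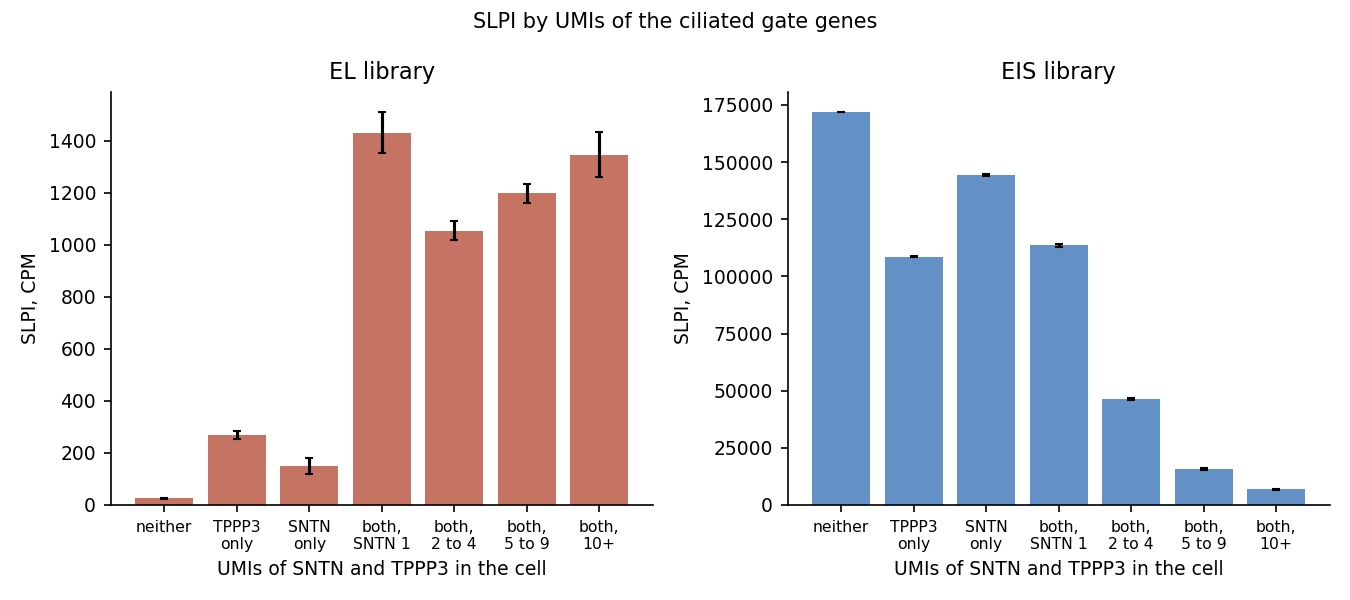
SLPI level in CPM (linear axes of different range) by UMIs of SNTN and TPPP3 in the cell, over kept cells of every class, in EL (left) and EIS (right). Bars are summed levels and whiskers exact Poisson intervals of counting error. EL bars stand at 1055 CPM or more in every group with both genes, and EIS bars fall to 6919 CPM in cells with 10 or more SNTN UMIs.

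Other protease inhibitors were read from a fixed list, with the same 4-fold limit and the shares over all genes given above for CPM and for TMM. In non-ciliated epithelial cells 5 of 12 measured inhibitors were lower and 1 was higher in EL in CPM. With TMM 8 were lower and none higher, where 8.14% of all genes were lower. TIMP2 was 99.5 CPM in EL and 30574 CPM in EIS, 307-fold higher in EIS (296 to 319). The cystatin gene CST6, an inhibitor of cysteine proteases, was 77.7 CPM in EL and 1606 CPM in EIS, 20.7-fold higher in EIS. The serpin genes SERPINE2, SERPINF1 and SERPING1 were also lower in EL, on 11 to 67 UMIs, and SERPINI2 was higher in EL on 25 UMIs against 1. UPTI was 2659 CPM in EL and 9688 CPM in EIS. UPTI, the metalloproteinase inhibitor gene TIMP1 and SPINT1, an inhibitor of hepatocyte growth factor activator, were past the limit with TMM alone, and SPINT2 was not past it in either scaling. In ciliated cells 2 of 10 inhibitors were lower in EL, TIMP2 and SERPING1, where 0.935% of all genes were lower.

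No other WAP family gene with a symbol in the files matched SLPI in level, and members without a symbol could not be read. Of 16 listed genes 7 carried a symbol in the files and 3 were measured in non-ciliated epithelial cells, of which 1 was at least 4-fold higher in EL (0 with TMM). Over all genes of this class 24.1% were higher in CPM and 7.73% with TMM. WFDC1, the most abundant, had 43.2 CPM in EL cells and 17.8 CPM in EIS cells. PI3, the gene of the related elastase inhibitor elafin, held 1 UMI in EL and 0 in EIS non-ciliated epithelial cells. ELANE, the gene of neutrophil elastase, which SLPI is known to inhibit, had no UMI in these cells, and neither had PRTN3, the gene of proteinase 3. Among 13 measured proteases ST14, the membrane serine protease matriptase, was 43.7 CPM in EL and 313 CPM in EIS (7.15-fold higher in EIS), and it was the 1 past the limit in CPM (5 with TMM, all lower in EL). The share of all genes that were lower in EL was 4.38% in CPM and 8.14% with TMM.

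Some hormone receptors and epithelial regulators were higher in EL. In non-ciliated cells 6 of 12 were at least 4-fold higher in EL and none was lower (3 higher and 1 lower, FOXO1, with TMM). Over all genes of that class 24.1% were higher and 4.38% lower in EL in CPM. With TMM these shares were 7.73% and 8.14%, and both pairs stand beside the cytokine and secretion counts below as well. The progesterone receptor gene PGR was 52.7 CPM in EL and 5.60 CPM in EIS, the oestrogen receptor gene ESR1 344 CPM in EL and 26.3 CPM in EIS, and the epithelial transcription factor gene SPDEF 737 CPM in EL and 17.3 CPM in EIS. With TMM the log2 ratios of EL over EIS were 2.08 for PGR, 2.56 for ESR1 and 4.26 for SPDEF. In ciliated cells SPDEF alone of 12 was past the limit, with 128 CPM in EL cells against 3.01 CPM in EIS cells. Over all genes of the ciliated class 2.54% were higher and 0.935% lower in EL. Among 13 NF-kappaB and cytokine genes, a pathway that SLPI is known to dampen, 3 were lower in EL epithelium (6 with TMM) and none higher. IL6 was 1.61 CPM in EL and 68.5 CPM in EIS, LIF, a cytokine of implantation, held 2 UMIs in EL and 428 UMIs in EIS, and the endotoxin receptor gene TLR4 was 0.696 CPM in EL and 29.0 CPM in EIS. Among 16 uterine secretion genes 7 were lower in EL epithelium in CPM as with TMM, and 2 were higher (0 with TMM). The cell clusters behind these sums differ between the sows, and their part in the differences was not tested.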

How the data were processed

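Raw UMI counts per feature and barcode were deposited, not normalized by the authors. The submitters' processing notes name Cell Ranger 2.1.1, while the file headers name cellranger 6.1.0. The build, the annotation and the counting of reads shared by near-identical gene copies are not given in the sources used. Features with an identifier and no symbol held 26.7% of EL and 23.1% of EIS UMIs. A total of 0 table columns were left unmapped.

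Barcodes with at least 500 UMIs and 300 genes were kept. Scrublet (scanpy 1.11.5) scores removed the top 0.8% per 1000 barcodes (933 EL and 601 EIS), since its automatic threshold marked 0 EL and 1 EIS. A cell went to the class with most different markers (at least 2, no tie), and epithelial cells with both SNTN and TPPP3 were ciliated. Clusters (2000 variable genes without SLPI, 30 principal components, 15 neighbours, leidenalg 0.10.2, resolution 1) were an alternative. UMIs were summed per class and scaled to the class total (CPM). TMM factors came from edgeR 4.0.16. Shares of cells were also taken after thinning to 1000 UMIs, and bounds against a count of 0 use 3 UMIs. Python 3.11.15, numpy 2.4.6, scipy 1.17.1 and pandas 2.3.3 were used. The interval code was checked on simulated counts.

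Named genes were those most and least like SLPI by r or rho (the 10 highest and 5 lowest), and members of fixed lists with at least 20 UMIs; 1 gene that met the rule is not reported here. SLPI, the lists and the rules were chosen with earlier results of these data known.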

Additional observations from a re-analysis of the deposited data

How the results depend on the processing

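Each of the 5 ratios was recomputed under other settings, and 50 of 53 values kept their direction. SLPI in EL over EIS non-ciliated epithelial cells (1.79e-04) was 2.13e-04 with a stricter gate, 2.21e-04 with clusters, 1.53e-04 at 1000 UMIs per cell, 1.26e-04 without SLPI in the total, 9.01e-05 without the 5 genes over 1% of a library, 8.04e-05 with TMM, 4.15e-04 in thinned cells and 8.34e-05 with 10% of UMIs removed as library profile. In ciliated cells (0.0666) it was 0.105 with the stricter gate, 0.122 with clusters, 0.0245 with doublets kept, 0.0648 without the genes over 1%, 0.0815 in thinned cells, 0.427 with 10% of the profile removed and 0.0237 for median cells. Removing the profile until T or NK cells had no SLPI gave bounds against 3 UMIs, 4.41e-07 in non-ciliated cells and 670 in ciliated cells. The turn of the second follows from the setting, since EIS ciliated cells stand below the T or NK level in summed CPM and are left with a negative count (-17174 UMIs). EL ciliated over non-ciliated (22.7) was 18.1 with the stricter gate, 18.6 with doublets, 26.3 at 1000 UMIs, 13.6 in thinned cells, 49.96 with 10% removed and 10247 as the bound. EL non-ciliated cells also stand below the EL T or NK level (52.8 against 70.9 CPM) and are left with -494 UMIs. The bounds of 4.41e-07 and 10247 thus also follow from the setting, though they are counted among the 50. EIS non-ciliated epithelial over T or NK (10.4) was 23.96 with the stricter gate, 26.7 with clusters, 6.70 with doublets, 10.9 at 1000 UMIs, 14.4 without SLPI in the total, 19.6 without the genes over 1%, 21.1 with TMM, 13.9 in thinned cells, 21.5 with 10% removed, 21.6 without KRT8 or KRT18 cells and 21.1 for median cells. EIS ciliated over T or NK (0.635) was 0.877 with the stricter gate, 0.931 with doublets, 0.658 at 1000 UMIs, 0.620 without the genes over 1%, 0.570 with TMM, 0.960 in thinned cells, 0.210 with 10% removed and 0.651 for median cells, and turned to 1.06 with clusters and 1.31 without KRT8 or KRT18 cells. The causes were not tested. The settings without KRT8 or KRT18 cells and with median cells were chosen after seeing the data, and removing all T or NK SLPI gives no value for the last 2 ratios. No paired analysis was possible because each group is 1 library, and for the same reason none could be left out. EL classes with under 30 SLPI UMIs are limited by depth.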

Other observations

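SLPI lies among other protease inhibitor genes. By gene order in the RefSeq annotation of Sscrofa11.1, used here for order alone, 12 of its 24 nearest protein-coding neighbours carried a symbol in the files. PI3, the gene of elafin, had no UMI in EL or EIS ciliated cells. The trypsin inhibitor gene PTI held 7 UMIs in EL and 0 in EIS non-ciliated epithelial cells. UPTI was abundant, and its highest levels lay in other cell sets than those of SLPI. In EL it was 373 CPM in ciliated cells and 2659 CPM in non-ciliated epithelial cells, where SLPI had its levels of 1198 and 52.8 CPM. In EL it was highest in the cluster led by RPRML, CYP26A1 and HDC (7343 CPM), and in EIS in the AQP8 cluster (34139 CPM) and the trophoblast gate (22477 CPM). SLPI stood at 10.3 CPM in that EL cluster, and at 21025 and 46493 CPM in these EIS sets. The widely expressed neighbours STK4, SYS1, PIGT and DBNDD2 stood between 13.4 and 133 CPM in ciliated and non-ciliated epithelial cells of both libraries.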
